A study of Homo sapiens with 183 samples.

Results

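Cells with either of 2 inhibitor-resistance variants were compared with empty-vector cells in 9 RNA-seq libraries. The libraries came from T3M-4, a basal-like human pancreatic ductal adenocarcinoma (PDAC) cell line, out of 183 samples in the series. All 9 libraries came from cells treated for 24 h with CB-6644, an allosteric inhibitor of the RUVBL1/2 ATPase, and all carried a stably integrated lentiviral vector with a neomycin resistance cassette after selection in G418. Of these, 3 came from cells with the empty vector (EV), 3 from cells expressing the A62T variant of RUVBL1 and 3 from cells expressing the dF109 variant of RUVBL2. A single DMSO (solvent) library of each genotype stood beside them. The comparisons were A62T against EV and dF109 against EV, both in inhibitor, and the members were the genes that differed in the same direction for both variants. Of the gene names in the table, 13516 averaged 1 TPM or more across the 9 libraries (a gene's transcripts relative to all transcripts of the library) and were tested, with RUVBL1 and RUVBL2 left out because the vectors carry them. The sources used here do not say whether each vector line was 1 transduction pool or whether the replicates were separate cultures, so the p-values measure the spread between these libraries.

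RUVBL1 and RUVBL2 are AAA+ ATPases that assemble into a hetero-oligomeric ring. The ring is a core of the INO80, SRCAP and TIP60 chromatin complexes and, with the R2TP cochaperone, helps to assemble the PIKK kinases, RNA polymerases and small nucleolar ribonucleoproteins. CB-6644 blocks its ATP hydrolysis. A62T in RUVBL1 and dF109, the loss of a phenylalanine, in RUVBL2 are changes that make cells resistant to the compound, and cells that carry them are used to ask which responses pass through the ring. The study examined RUVBL1/2 as a cofactor of KLF5, a zinc-finger transcription factor of epithelial lineages, and basal-like PDAC is marked by stratified keratins and squamous genes.

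The vector transcripts matched the labels. RUVBL1 (GRCh38.p14 chromosome 3, 128064785 to 128153914) was listed at 114, 109.6 and 110.1 TPM in EV, 1971, 2151 and 1973 TPM in A62T and 124, 118 and 118 TPM in dF109. RUVBL2 (GRCh38.p14 chromosome 19, 48993448 to 49015995) was listed at 148, 140.1 and 119 TPM in EV, 129, 124.7 and 119.7 TPM in A62T and 1248, 1256 and 1166 TPM in dF109. Each variant cDNA was thus counted under its own gene, in the 3 libraries whose label names it, and the DMSO libraries showed the same pattern, with RUVBL1 at 142 TPM in EV, 1785 TPM in A62T and 148 TPM in dF109 and RUVBL2 at 130.4 TPM in EV, 137 TPM in A62T and 1055 TPM in dF109. The values do not separate variant from endogenous transcripts. No library came from cells with a wild-type RUVBL1 or RUVBL2 cDNA. The variant and its raised transcript level therefore cannot be told apart in any comparison with EV.

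**Figure D1:**
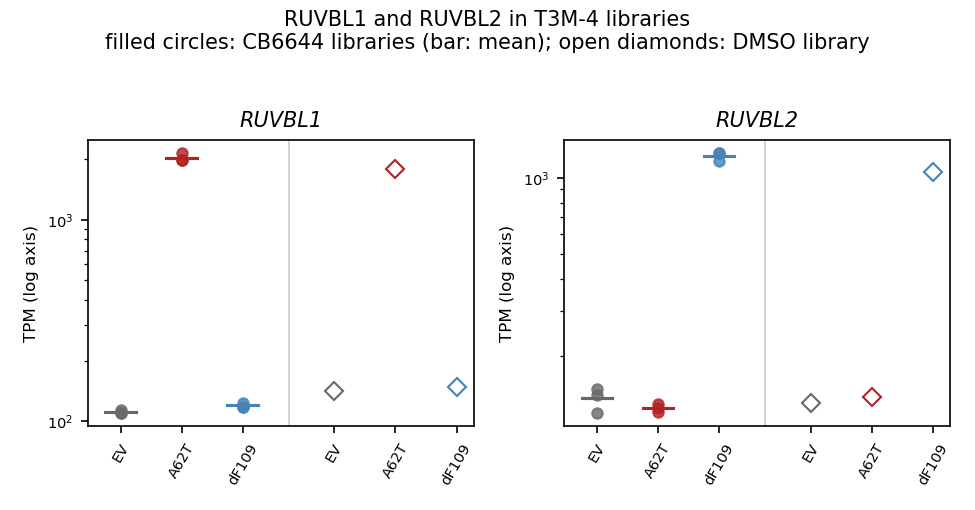
TPM of RUVBL1 and RUVBL2 (log axis) in each T3M-4 library, with 3 CB-6644 libraries (circles, bar at the mean) and 1 DMSO library (diamond) for each of EV, A62T and dF109. RUVBL1 stands apart in the A62T libraries and RUVBL2 in the dF109 libraries.

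The 3 EV libraries in inhibitor were less alike than the variant libraries. Pearson's r between libraries of a group, across genes, was 0.980 to 0.993 in EV, 0.996 to 0.998 in A62T and 0.997 to 0.998 in dF109. The 100 most abundant genes held 34.4% to 40.0% of all TPM in EV, 27.6% to 28.1% in A62T and 28.8% to 29.3% in dF109, and EV replicate 3 was the highest of the 9. In DMSO the same share was 39.5% in EV, 30.4% in A62T and 34.4% in dF109. Genes at 1 TPM or more numbered 12833 to 13579 in EV, 13546 to 13554 in A62T and 13487 to 13575 in dF109. This difference in composition moved with genotype, and in both variants the DMSO share was also above that of every inhibitor library. The part of composition in the results below, the comparisons with DMSO included, was not tested. TPM keep no sequencing depth, so no counting error can be given.

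Both variants differed from EV at a large share of genes. A62T was higher at 6670 genes (49.3%) and lower at 1542 (11.4%) at an adjusted p under 0.05. dF109 was higher at 5898 genes (43.6%) and lower at 1054 (7.80%). The variants agreed at 5472 higher genes (40.5% of those tested) and 965 lower genes (7.14%), and 0 genes were called with opposite signs by limma, against 6 at an unadjusted p under 0.05 in both. Both comparisons used the same 3 EV libraries, so their agreement is not independent. The median log2 difference over all genes was 0.27 for A62T and 0.23 for dF109. When TPM were rescaled by the median of ratios, that shift went to 0.01 for both, and the agreeing genes became 2490 higher and 2410 lower. The excess of higher over lower genes therefore rests on the scale. On the deposited scale the agreeing genes were 7045 higher and 960 lower without EV replicate 1, 4701 and 730 without EV replicate 2, and 5278 and 1297 without EV replicate 3. All 965 lower genes and 2490 of the 5472 higher genes kept their call on both scales. A difference of at least 1 on the log2(TPM + 1) scale for both variants was reached by 440 higher genes (3.26%) and 28 lower genes (0.207%), of which 434 and 28 were also called after rescaling.

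Among the genes most raised in both variants were SPRR2A, LCN2, F3 and IGFBP3. SPRR2A, a small proline-rich protein of the cornified envelope, was at 16.5, 14.9 and 7.98 TPM in EV, 147, 134 and 155 TPM in A62T and 104, 104 and 99.4 TPM in dF109. Its 6 variant libraries lay far above its EV libraries, by 3.42 ± 0.21 for A62T and 2.93 ± 0.21 for dF109 (log2 difference ± SE, adjusted p = 3.3e-06 and 1.6e-05). LCN2, which encodes the siderophore-binding protein lipocalin 2, was at 168, 169 and 158 TPM in EV, 1363, 1521 and 1359 TPM in A62T and 758, 750.0 and 795 TPM in dF109. F3, tissue factor, was at 90.4, 67.1 and 54.4 TPM in EV, 471, 512 and 453 TPM in A62T and 353, 352 and 364 TPM in dF109. In each of these genes every A62T library lay above every dF109 library. Neither variant overlapped with EV, which was a condition for naming the leading genes. That lack of overlap held for 5381 of the 5472 agreeing higher genes. Those genes had already been called, and the share over all genes tested was not counted. The log2 differences were 3.09 and 2.21 for LCN2 and 2.77 and 2.35 for F3, in the order A62T and dF109. IGFBP3, an insulin-like growth factor binding protein, stood at 34.2 ± 0.878 TPM in EV, 257 ± 3.96 TPM in A62T and 178 ± 1.67 TPM in dF109 (mean ± SD, n = 3). SLC26A9, an anion transporter, stood at 0.775 ± 0.313 TPM in EV, 15.1 ± 0.636 TPM in A62T and 8.99 ± 0.678 TPM in dF109. MUC20, a membrane mucin, stood at 24.1 ± 12.5 TPM in EV, 191 ± 12.1 TPM in A62T and 109 ± 3.15 TPM in dF109, with the 3 EV libraries at 37.2, 23 and 12.1 TPM. The other genes of the 12 with the largest smaller difference were LRRC38, HSD11B1 (which regenerates active glucocorticoid), ANKRD1 (a YAP-responsive ankyrin repeat protein), C15orf48, ZBED2 and CD22. Their log2 differences for A62T and dF109 were 2.84 and 2.47, 2.77 and 2.41, 2.79 and 2.27, 2.50 and 2.27, 2.71 and 2.24 and 3.16 and 2.23, and all 12 genes stayed above EV after rescaling.

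Keratins, matrix metalloproteinases and SOX2 led the lower genes. MMP13, a collagenase, was at 124.97, 141 and 140.1 TPM in EV, 15.6, 16.9 and 14.6 TPM in A62T and 21.3, 21.6 and 23 TPM in dF109, a log2 difference of -3.03 ± 0.07 for A62T and -2.57 ± 0.07 for dF109 (adjusted p = 3.0e-08 and 1.2e-07). MMP1, another collagenase, was at 704, 751 and 806 TPM in EV, 206, 239 and 215 TPM in A62T and 208, 216 and 229 TPM in dF109. In both genes every variant library lay below every EV library, again a condition for naming them. This held for 940 of the 965 agreeing lower genes, again counted only among genes already called. KRT4, a keratin of stratified mucosa and one of the basal identity genes the study follows, was at 189, 179.8 and 171 TPM in EV, 46, 40.1 and 42.5 TPM in A62T and 49.9, 49.3 and 46.3 TPM in dF109. SOX2, a pluripotency and squamous-lineage transcription factor, was at 17.5, 17.6 and 16 TPM in EV, 3.79, 2.8 and 3.85 TPM in A62T and 4.53, 5.27 and 5.21 TPM in dF109. These values place the variant cells under EV by -1.77 and -1.79 for MMP1, -2.05 and -1.87 for KRT4 and -2.02 and -1.59 for SOX2 (log2, A62T and dF109). KRT1, a keratin of cornifying epidermis, differed by -2.00 and -1.96, and the hair keratin KRT36 by -1.70 and -1.54. MMP12, SELENOP, TNNT3 and MDS2 differed by -1.87 and -1.49, -1.67 and -1.59, -1.602 and -1.48 and -1.49 and -1.46. HOTS and 1 locus without a gene symbol completed the 12.

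**Figure D2:**
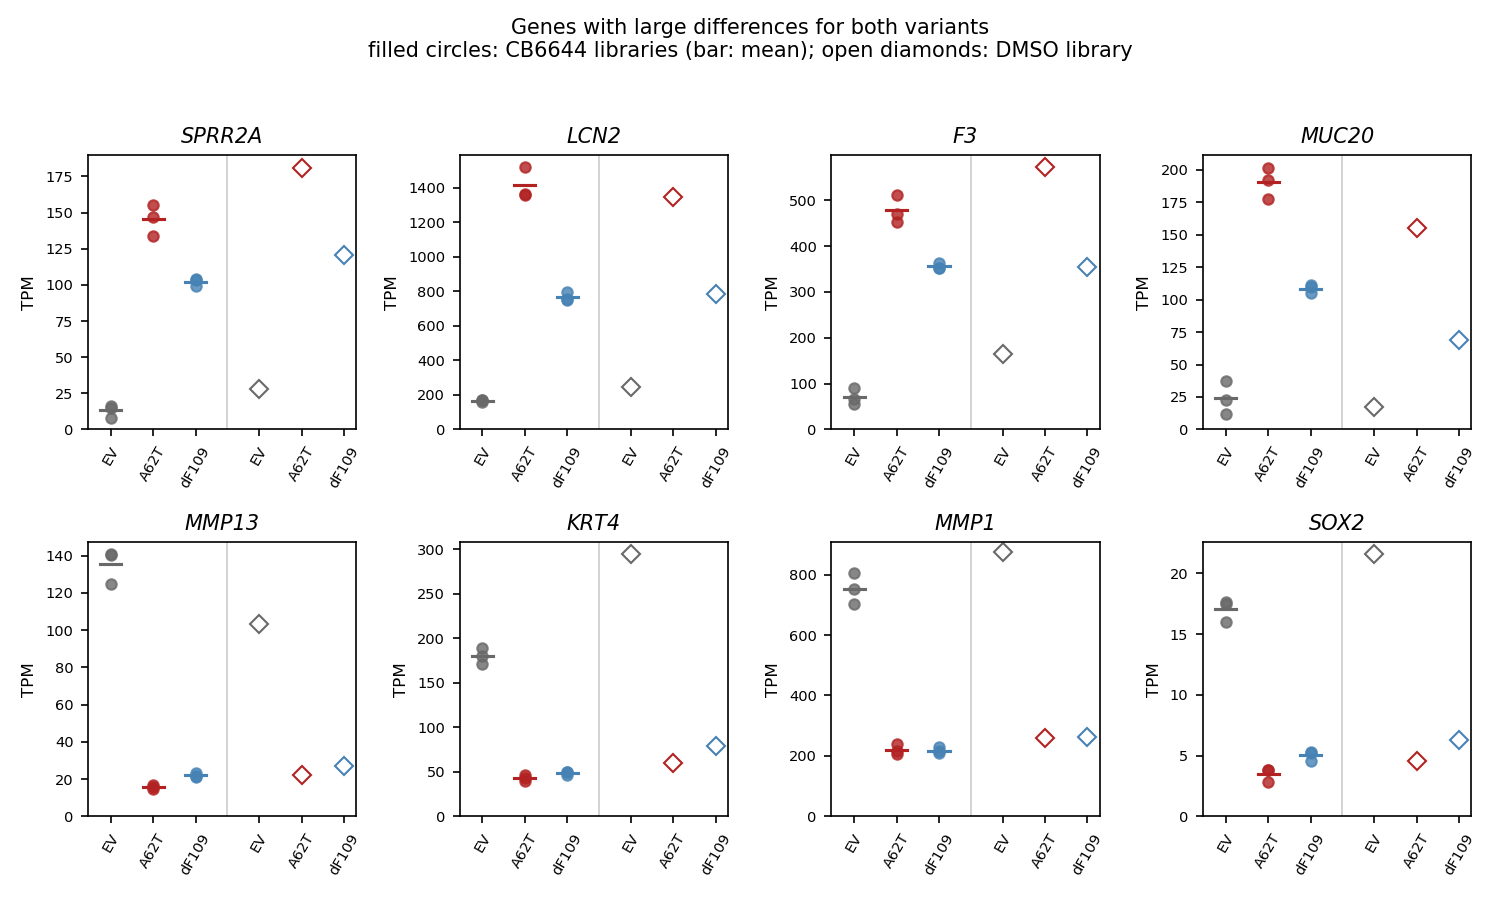
TPM of 4 genes higher (SPRR2A, LCN2, F3, MUC20) and 4 lower (MMP13, KRT4, MMP1, SOX2) in both variants, with 3 CB-6644 libraries (circles, bar at the mean) and 1 DMSO library (diamond) per genotype. In DMSO, EV lies on the same side of both variants as in inhibitor in all 8 genes.

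Most of these large differences had the same direction in the DMSO libraries, 1 per genotype. SPRR2A in DMSO was at 28.1 TPM in EV, 181 TPM in A62T and 121 TPM in dF109. MMP13 in DMSO was at 103 TPM in EV, 22 TPM in A62T and 27.1 TPM in dF109. For both genes the EV cells already stood apart from both variant lines before any CB-6644 was added. KRT4 in DMSO was at 295 TPM in EV, 59.9 TPM in A62T and 79.1 TPM in dF109 and SOX2 at 21.6 TPM in EV, 4.57 TPM in A62T and 6.25 TPM in dF109. In all, 430 of the 440 large higher genes were higher in both variant DMSO libraries than in the EV one, as were 8000 of all 13516 tested. A DMSO difference of at least 1 in both variants was seen for 171 of the 440, against 221 of all genes tested (1.64%). It was seen for 18 of the 28 large lower genes, against 52 of all (0.385%). Only 25 of the large higher genes and 4 of the large lower genes differed by under 0.5 in both variants in DMSO. The DMSO libraries are not among those of the inhibitor comparison, but there is 1 per genotype and both DMSO differences use the same EV library. Without EV replicate 1 the share of large higher genes with a DMSO difference of at least 1 was 24.2%, and without EV replicate 3 it was 49.5%, against 38.9% with all libraries.

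**Figure D3:**
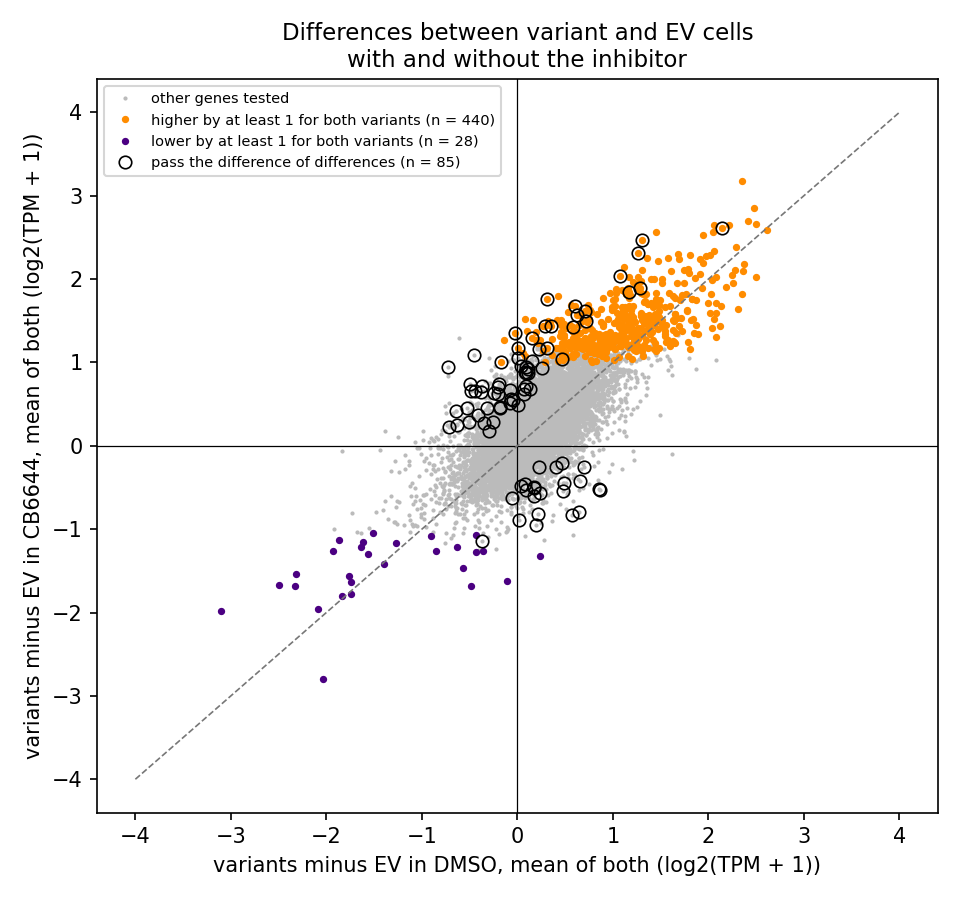
Mean difference between both variants and EV in CB-6644 (vertical, 3 libraries per genotype) against that in DMSO (horizontal, 1 library per genotype), both on the log2(TPM + 1) scale, for each of 13516 genes. Of the large higher genes (n = 440), 430 were higher in both variants in DMSO too, and of the large lower genes (n = 28), 27 were lower. The dashed line marks equal difference. The circled genes (n = 85) were selected for passing the difference of differences for both variants and so lie off it.

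To separate genes whose difference depended on the inhibitor, the difference in DMSO was subtracted from the difference in CB-6644 and tested, with the spread taken from the 9 inhibitor libraries. This comparison was chosen after the data had been seen. The difference of differences passed an adjusted p of 0.05 at 194 genes upward (1.44%) and 266 downward (1.97%) for A62T. For dF109 it passed at 123 (0.910%) and 57 genes (0.422%). Of the agreeing genes, 62 of 5472 higher ones (0.459% of those tested) and 23 of 965 lower ones (0.170%) passed it for both variants in the same direction. All of the 62 were lower in the EV cells in CB-6644 than in DMSO, with a median log2 change of -0.92, against -0.07 in A62T and -0.06 in dF109. The 23 genes rose in the EV cells by a median of 1.32, against 0.42 in A62T and 0.51 in dF109. Over all 13516 genes tested, 4603 were lower in the EV cells in CB-6644 than in DMSO. The median change over all genes was 0.17 in EV, 0.15 in A62T and 0.32 in dF109. The median difference of differences over all genes was -0.03 for A62T and 0.14 for dF109. The medians of the 62 and of the 23 describe genes that were selected for the contrast. The counts of genes that pass are fragile, since each rests on 1 DMSO library per genotype. Leaving out single inhibitor libraries gave between 3 and 317 higher genes and between 1 and 126 lower genes. The largest counts came without EV replicate 1 (317 and 64) and without EV replicate 3 (304 and 126), and the smallest without A62T replicate 1 or any 1 dF109 library (3 and 1 each). Without A62T replicate 2, A62T replicate 3 or EV replicate 2 there were 33, 10 and 4 higher genes, and 16, 3 and 1 lower genes.

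UTP18, a component of the small-subunit processome that matures ribosomal RNA, showed this pattern. In inhibitor it was at 18.4, 20.1 and 19.5 TPM in EV, 52.1, 51 and 50.6 TPM in A62T and 50, 51.3 and 50.7 TPM in dF109, and in DMSO at 88.6 TPM in EV, 82.8 TPM in A62T and 91.9 TPM in dF109. The 3 genotypes were alike in DMSO, EV fell furthest in CB-6644 and both variants kept an intermediate level. Its difference of differences was 1.46 ± 0.10 for A62T and 1.29 ± 0.10 for dF109 (log2 ± SE, adjusted p = 0.0014 and 0.0047). KAT5, the acetyltransferase of the TIP60 complex that itself contains RUVBL1/2, was at 16, 15.9 and 15.8 TPM in EV, 54.6, 53.1 and 52.6 TPM in A62T and 36.8, 36.9 and 37.8 TPM in dF109 in inhibitor and 44.3 TPM in EV, 59.9 TPM in A62T and 49.6 TPM in dF109 in DMSO, a difference of differences of 1.26 ± 0.09 for A62T and 1.02 ± 0.09 for dF109 (adjusted p = 0.0014 and 0.0063). YEATS4, a subunit shared by the TIP60 and SRCAP complexes, was at 27.8 ± 0.169 TPM in EV, 38.4 ± 1.48 TPM in A62T and 38.5 ± 1.69 TPM in dF109 in inhibitor and 47.5 TPM in EV, 42.1 TPM in A62T and 41.3 TPM in dF109 in DMSO. NRG1, an ERBB3 and ERBB4 ligand, was at 16.3, 15 and 13 TPM in EV, 58, 55.8 and 50.5 TPM in A62T and 52.8, 51.2 and 47.2 TPM in dF109 in inhibitor, against 50.8 TPM in EV, 64.4 TPM in A62T and 62.2 TPM in dF109 in DMSO. ID1, an inhibitor of basic helix-loop-helix factors, was at 492, 423 and 392 TPM in EV, 1126, 1067 and 1089 TPM in A62T and 886, 872 and 889.8 TPM in dF109 in inhibitor, against 1139.6 TPM in EV, 1216 TPM in A62T and 1073 TPM in dF109 in DMSO. In NRG1 and ID1 the EV inhibitor libraries lay far below all other libraries, DMSO included. ATF4, the transcription factor of the integrated stress response, was at 723 ± 7.14 TPM in EV, 1674 ± 25 TPM in A62T and 1274 ± 36.7 TPM in dF109 in inhibitor and 1225 TPM in EV, 1520.4 TPM in A62T and 1227 TPM in dF109 in DMSO. KRT19, a simple epithelial keratin, was at 1388 ± 97.2 TPM in EV, 2423 ± 76.4 TPM in A62T and 2019 ± 61.6 TPM in dF109 in inhibitor and 3077 TPM in EV, 2917 TPM in A62T and 2913 TPM in dF109 in DMSO. KRT14, the basal-layer partner of KRT5, was at 370.4 ± 16.6 TPM in EV, 423 ± 26 TPM in A62T and 442 ± 24 TPM in dF109 in inhibitor and 981 TPM in EV, 515 TPM in A62T and 691 TPM in dF109 in DMSO, so that its EV level was the highest in DMSO and the lowest in inhibitor. Its higher level in the variants in inhibitor was lost after rescaling (-0.10 and -0.0037). The difference of differences was 0.62 and 0.65 for YEATS4, 1.49 and 1.42 for NRG1, 1.24 and 1.11 for ID1, 0.90 and 0.81 for ATF4, 0.88 and 0.62 for KRT19 and 1.12 and 0.76 for KRT14. The largest smaller values were those of LGALS9B (1.83 and 1.52), a galectin, and the transmembrane protease gene TMPRSS11F (1.51 and 1.58), and GBP6, ZBED2, SYBU, HAS3 (a hyaluronan synthase) and the RNA helicase gene DDX60 also stood among the first 10. After rescaling, YEATS4, ATF4, KRT19, KRT14 and DDX60 passed the difference of differences for A62T but not for dF109 (adjusted p = 0.11, 0.070, 0.11, 0.066 and 0.10), while F3 passed for both. LGALS9B belongs to a family of near-identical copies, so its level is uncertain.

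Genes that rose in EV but less in the variants included C12orf57, at 543, 522 and 523 TPM in EV, 272, 256 and 265 TPM in A62T and 345, 338 and 343 TPM in dF109 in inhibitor, against 157 TPM in EV, 166 TPM in A62T and 199 TPM in dF109 in DMSO. ID2, a relative of ID1, was at 76.5, 73.4 and 72.7 TPM in EV, 45, 42.3 and 45.4 TPM in A62T and 52.3, 52.7 and 53.7 TPM in dF109 in inhibitor, against 29 TPM in EV, 31.3 TPM in A62T and 34.4 TPM in dF109 in DMSO. ID1 and ID2 thus moved in opposite directions, and in both genes all 6 variant inhibitor libraries lay between the EV inhibitor and EV DMSO levels. MARCKSL1, an actin-bundling MARCKS relative, was at 129, 114 and 95 TPM in EV, 68.6, 62.1 and 67.5 TPM in A62T and 86.8, 94 and 90.6 TPM in dF109 in inhibitor, against 25.5 TPM in EV, 45.7 TPM in A62T and 49 TPM in dF109 in DMSO, and its highest dF109 library lay just under the lowest EV library. The differences of differences were -1.08 ± 0.08 for A62T and -0.97 ± 0.08 for dF109 for C12orf57, -0.84 and -0.72 for ID2 and -1.57 and -1.22 for MARCKSL1. CD83, an immunoglobulin-family surface protein, differed by -1.12 and -0.93. FEN1, the flap endonuclease of lagging-strand synthesis, differed by -0.72 and -0.60, and RNASEH2A, the catalytic subunit of RNase H2, by -0.51 and -0.58. RFPL4A, NPTX2, FRG2 and CDKN2D, an inhibitor of cyclin-dependent kinases, completed the first 6 by size, of which RFPL4A and FRG2 belong to multigene families whose reads may be shared. After rescaling FEN1 passed for neither variant (adjusted p = 0.051 and 0.057) and RNASEH2A for dF109 alone. KAT5, YEATS4, ATF4, KRT14, KRT19, ID2, CD83, FEN1 and RNASEH2A were picked for naming after their values were seen.

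**Figure D4:**
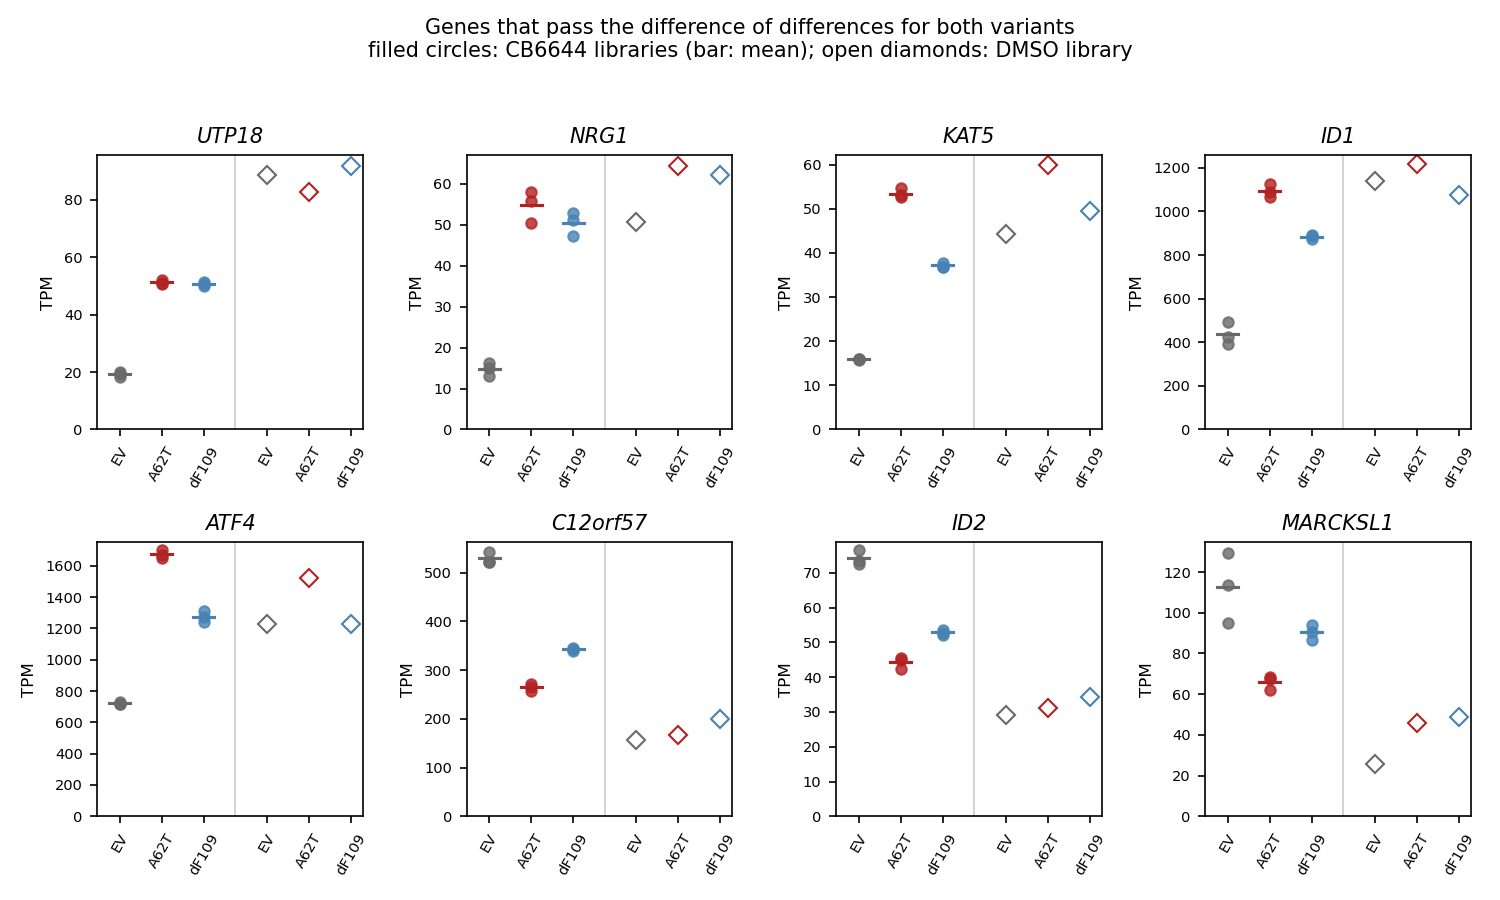
TPM of 5 genes that were higher in the variants (UTP18, NRG1, KAT5, ID1, ATF4) and 3 that were lower (C12orf57, ID2, MARCKSL1), with 3 CB-6644 libraries (circles, bar at the mean) and 1 DMSO library (diamond) per genotype. EV in CB-6644 is the lowest group in each of the first 5 genes and the highest in the last 3.

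Many of the genes that passed the difference of differences were also called in AsPC-1, a classical PDAC line with libraries of its own. Of the 62 higher genes, 46 were tested in AsPC-1 and 32 were higher for both variants with the difference of differences passed there too, against 8.21% of the 12350 genes tested in AsPC-1. Of the 23 lower genes, 21 were tested and 17 did so, against 3.93%. No test of this overlap was made. UTP18 in AsPC-1 in inhibitor was at 14.2 ± 1.23 TPM in EV, 32.7 ± 1.16 TPM in A62T and 32.6 ± 1.07 TPM in dF109, with DMSO values of 46.3, 41.2 and 44.2 TPM in EV, A62T and dF109. KAT5 was at 17.9 ± 0.725 TPM in EV, 47.8 ± 1.97 TPM in A62T and 34.6 ± 0.816 TPM in dF109, with DMSO values of 53.2, 56.1 and 50.1 TPM in EV, A62T and dF109. KRT19 was at 1142 ± 59.5 TPM in EV, 2629 ± 130.4 TPM in A62T and 2526 ± 69.7 TPM in dF109, with DMSO values of 2894, 2955 and 3175 TPM in EV, A62T and dF109. ID2 was at 110.1 ± 1.76 TPM in EV, 44 ± 1.28 TPM in A62T and 49.3 ± 0.443 TPM in dF109, with DMSO values of 47.3, 36.5 and 35 TPM in EV, A62T and dF109. In each of these genes the AsPC-1 EV cells moved away from DMSO and the variants moved less, as in T3M-4.

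The promoters of UTP18, which fell in EV in both lines, and of ID1 and ID2, related genes that moved in opposite directions, are shown as the regulatory sequence of this group. Each is the 250 bases before the RefSeq start (GRCh38.p14), 5′ to 3′ along the gene, with matches to CCNCNCCC, a KLF-type CACC motif searched on both strands, in capitals, where matches may overlap.
UTP18, chr17:51260296-51260545, plus strand: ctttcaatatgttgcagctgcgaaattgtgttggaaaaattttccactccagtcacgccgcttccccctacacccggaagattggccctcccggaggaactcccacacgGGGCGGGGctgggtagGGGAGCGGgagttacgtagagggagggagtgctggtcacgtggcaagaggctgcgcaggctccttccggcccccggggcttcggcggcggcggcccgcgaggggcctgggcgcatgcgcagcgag
ID1, chr20:31605039-31605288, plus strand: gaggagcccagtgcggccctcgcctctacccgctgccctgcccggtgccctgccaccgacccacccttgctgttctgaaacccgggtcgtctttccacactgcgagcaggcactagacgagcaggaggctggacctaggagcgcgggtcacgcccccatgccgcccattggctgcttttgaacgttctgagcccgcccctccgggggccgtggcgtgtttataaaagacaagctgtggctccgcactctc
ID2, chr2:8681806-8682055, plus strand: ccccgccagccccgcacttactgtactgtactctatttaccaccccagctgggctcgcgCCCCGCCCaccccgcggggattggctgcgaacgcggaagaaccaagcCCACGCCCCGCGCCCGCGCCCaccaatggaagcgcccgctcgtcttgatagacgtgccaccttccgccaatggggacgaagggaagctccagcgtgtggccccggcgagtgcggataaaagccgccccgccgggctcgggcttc
UTP18 held 2 matches, ID1 0 and ID2 4. Over the 300-base windows of RefSeq (250 before to 50 after the start), the motif was in 73.1% of 4312 matched promoters of genes that agreed higher, 72.3% of 721 that agreed lower and 72.8% of 10383 matched promoters of all genes tested, and in 55.1% of all 27305 promoters. Among agreeing genes that passed the difference of differences, it was in 34 of 51 matched promoters of the higher ones and 18 of 23 of the lower ones. The motif share of each direction was thus close to that of the tested genes.

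The basal identity genes the study follows did not all move in one direction. KRT5, the type II keratin of basal cells, was at 1784, 1707 and 1628 TPM in EV, 735, 701 and 695 TPM in A62T and 998, 984 and 936 TPM in dF109 in inhibitor and 1846 TPM in EV, 855 TPM in A62T and 1165 TPM in dF109 in DMSO, so it was lower in both variants with and without the compound. Its log2 differences in inhibitor were -1.26 and -0.81 for A62T and dF109. KRT17, a keratin of basal-like tumours, was at 1776, 1610.0 and 1450.0 TPM in EV, 2628, 2468 and 2473 TPM in A62T and 2443, 2399 and 2325 TPM in dF109 in inhibitor and 2629.8 TPM in EV, 2494 TPM in A62T and 2714 TPM in dF109 in DMSO. For KRT17 only the EV inhibitor libraries stood apart, by 0.65 ± 0.07 for A62T and 0.57 ± 0.07 for dF109 (adjusted p = 7.2e-05 and 2.6e-04), and the difference of differences passed for A62T but not for dF109 (adjusted p = 0.031 and 0.1). MYC was at 47.3, 37.3 and 29.4 TPM in EV, 123, 122 and 119 TPM in A62T and 98.1, 97.9 and 94.8 TPM in dF109 in inhibitor and 81.4 TPM in EV, 123 TPM in A62T and 96.7 TPM in dF109 in DMSO, a log2 difference of 1.67 ± 0.14 for A62T and 1.35 ± 0.14 for dF109. Its difference of differences of 1.08 and 1.11 did not pass (adjusted p = 0.071 and 0.085), but on rescaled values it was 1.13 and 0.98 and passed for both (adjusted p = 0.010 and 0.037). KLF5 was at 231, 202 and 172 TPM in EV, 285, 273 and 287 TPM in A62T and 273, 277 and 285 TPM in dF109 in inhibitor and 229 TPM in EV, 255 TPM in A62T and 223 TPM in dF109 in DMSO. It was called higher for both variants by 0.49 and 0.47 (adjusted p = 0.0017 and 0.003). After rescaling the KLF5 differences were 0.20 and 0.22 and still passed for both (adjusted p = 0.017 and 0.015). TP63, the master regulator of squamous epithelium, was at 76.1, 62.7 and 43.1 TPM in EV, 95.9, 86.4 and 90.2 TPM in A62T and 89.6, 89 and 84.5 TPM in dF109, higher for both variants (adjusted p = 0.012 and 0.021), but after rescaling the dF109 difference did not pass. SERPINB5, maspin, was at 96.1 ± 7.13 TPM in EV, 140.2 ± 0.889 TPM in A62T and 137 ± 1.29 TPM in dF109, and S100A2, a squamous calcium-binding protein, at 1179.8 ± 79.1 TPM in EV, 1076 ± 24.9 TPM in A62T and 1042 ± 45.1 TPM in dF109. SERPINB5 was higher for both variants (adjusted p = 5.1e-05 and 1.4e-04) but for neither after rescaling (adjusted p = 0.066 and 0.081), and in DMSO it was at 110.8 TPM in EV, 147 TPM in A62T and 147 TPM in dF109. In contrast, S100A2 was called lower for dF109 and not for A62T (adjusted p = 0.067 and 0.026), and for both after rescaling. CDH1, E-cadherin, was at 123 ± 29 TPM in EV, 160.2 ± 3.29 TPM in A62T and 161 ± 3 TPM in dF109, called higher for both (adjusted p = 0.029 and 0.033). After rescaling its log2 differences were 0.11 and 0.15 and passed for neither (adjusted p = 0.31 and 0.20).

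**Figure D5:**
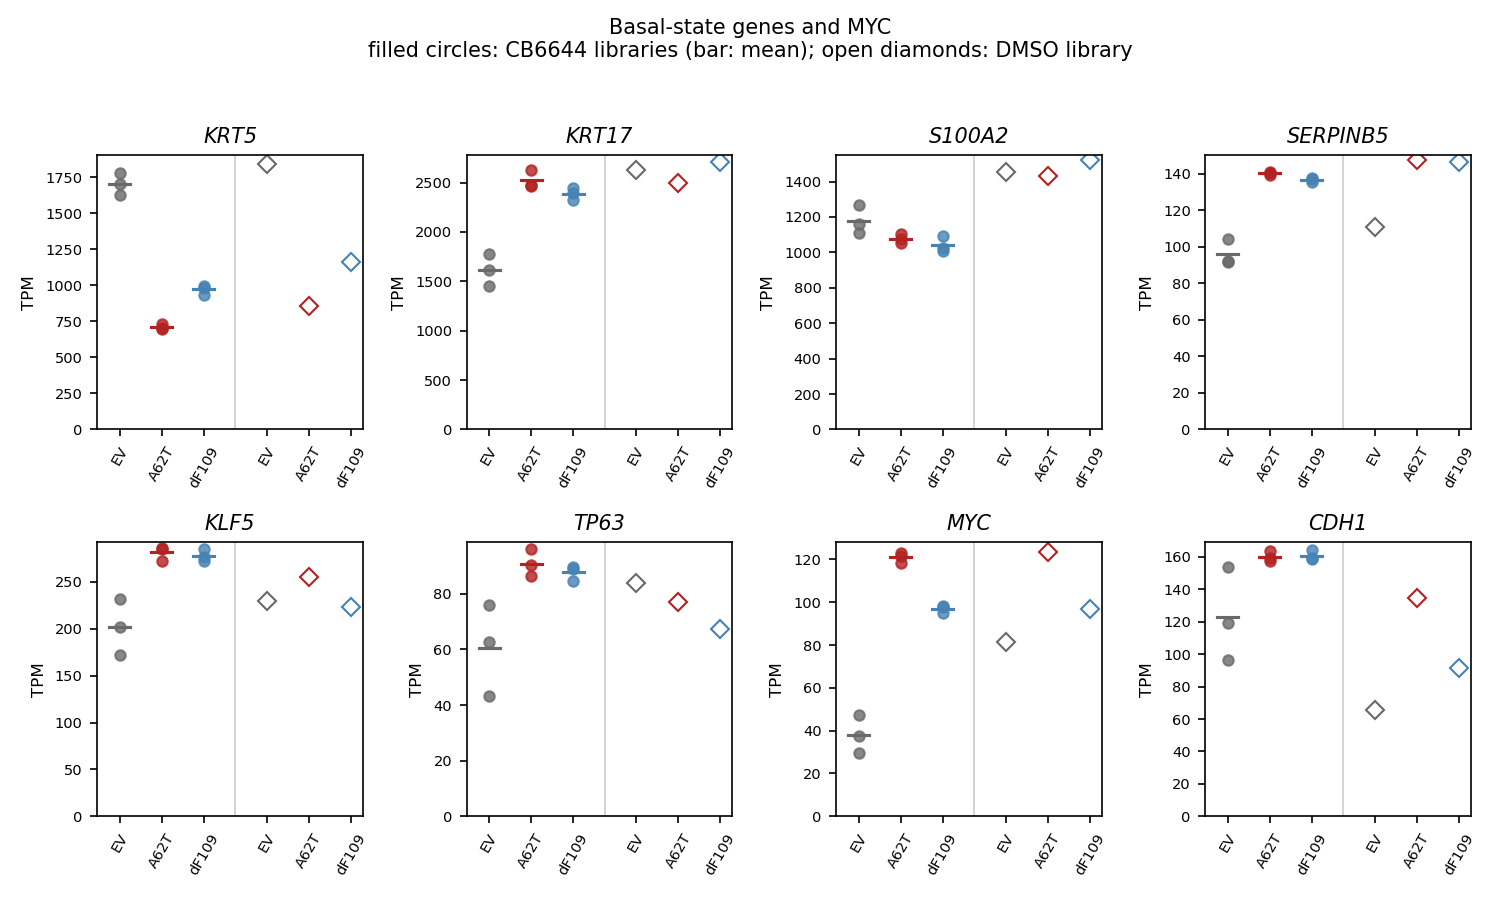
TPM of basal identity genes, KLF5, CDH1 and MYC, with 3 CB-6644 libraries (circles, bar at the mean) and 1 DMSO library (diamond) per genotype. KRT5 is lower in both variants with and without inhibitor, and KRT17 and MYC are lowest in the EV inhibitor libraries.

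Counts over gene lists are read here against 40.5% of all genes agreeing higher and 7.14% agreeing lower, and against median log2 differences of 0.27 for A62T and 0.23 for dF109. Counts after rescaling are read against the rescaled shares of all genes, 18.4% agreeing higher and 17.8% agreeing lower. Of 149 tested genes of the Moffitt basal-like signature, 101 agreed higher and 10 lower (71 and 24 after rescaling), with medians of 0.61 for A62T and 0.51 for dF109. The DMSO medians of this signature were 0.45 for A62T and 0.25 for dF109, against 0.30 and 0.09 over all genes. TGM2, a transglutaminase of that list, was at 6.59 ± 1.14 TPM in EV, 57.4 ± 1.74 TPM in A62T and 32.9 ± 1.39 TPM in dF109. The Moffitt classical signature had 66 of 133 higher and 13 lower (49 and 25 after rescaling), including MUC13 (2.04 and 2.01) and CEACAM5 (2.42 and 1.93). Of the study's direct KLF5 targets in T3M-4, 60 of 85 agreed higher and 6 lower (49 and 11 after rescaling), with medians of 0.73 for A62T and 0.70 for dF109. That list was chosen by the study in this cell line, so it is not independent of T3M-4. Its medians in DMSO were 0.56 for A62T and 0.33 for dF109. Of the KLF5 targets that agreed higher, 3 passed the difference of differences for both, against 62 of all genes tested (0.459%). Whether or not they agreed in inhibitor, 4 of the 85 passed it upward for both variants and 2 downward, against 73 and 44 of all genes. MYEOV (2.61 and 2.00), the mucin MUC16 (2.36 and 1.92) and FAM83A (2.15 and 1.82) led the list beside F3. Among 34 basal and squamous markers, 24 agreed higher and 3 lower (15 and 6 after rescaling), among them SPRR2D (2.26 and 1.79), the clade B serpin SERPINB2 (1.82 and 1.68) and the kallikrein KLK6 (1.78 and 1.57). Stratified keratins were mixed, with 8 of 13 higher, led by KRT80 and KRT81, and 2 lower (6 and 5 after rescaling). Of 5 simple keratins, KRT7, KRT18 and KRT19 were higher and KRT20 lower (-1.12 and -0.62), and 2 stayed higher after rescaling.

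Several signalling lists agreed higher at shares above that of all genes, which is given as a description. Of 28 AP-1 and immediate early genes, 24 agreed higher (22 after rescaling), with medians of 0.86 for A62T and 0.73 for dF109. FOSL1, an AP-1 subunit, was at 78.1, 50.6 and 28.4 TPM in EV, 196, 175 and 182 TPM in A62T and 166, 167 and 159 TPM in dF109 in inhibitor and 25.6 TPM in EV, 173 TPM in A62T and 104 TPM in dF109 in DMSO. The EV libraries of FOSL1 were spread widely but lay below all 6 variant libraries. KLF6 (1.77 and 1.48) and PHLDA1 (1.56 and 1.28) followed it. Of 24 chemokines and cytokines, 21 agreed higher (19 after rescaling), with medians of 1.12 for A62T and 1.05 for dF109. CXCL8, a neutrophil chemokine, was at 16 ± 2.19 TPM in EV, 89.2 ± 14.4 TPM in A62T and 56 ± 5.24 TPM in dF109 in inhibitor and 23.9 TPM in EV, 103 TPM in A62T and 71.2 TPM in dF109 in DMSO, and LIF, CXCL2 and CXCL10 differed by 2.08 and 1.599, 1.79 and 1.56 and 1.56 and 1.48. Of 12 EGF receptor family genes and ligands, 8 agreed higher and 1 lower (6 and 2 after rescaling). The ligands HBEGF and TGFA were at 35.6 ± 0.953 TPM in EV, 140.3 ± 4.38 TPM in A62T and 102 ± 1.51 TPM in dF109 and at 32.7 ± 3.12 TPM in EV, 98.3 ± 1.6 TPM in A62T and 82.5 ± 2.87 TPM in dF109, respectively, and the feedback inhibitor ERRFI1 differed by 1.33 and 1.23. In DMSO, HBEGF stood at 21.2 TPM in EV, 116.3 TPM in A62T and 74.6 TPM in dF109. Of 35 interferon-stimulated genes, 26 agreed higher and 2 lower (15 and 2 after rescaling), with IFI6 at 85.8 ± 20.1 TPM in EV, 331 ± 36.3 TPM in A62T and 307 ± 8.87 TPM in dF109 and IFI44L and RSAD2 differing by 1.65 and 1.64 and 1.58 and 1.35. Adhesion and junction genes had 25 of 30 higher and 2 lower (16 and 3 after rescaling), including CEACAM6 (1.74 and 1.44) and the integrin gene ITGB4 (1.28 and 0.94). TGF-beta and mesenchymal genes had 12 of 23 higher and 4 lower (11 and 4 after rescaling), among them THBS1 (2.37 and 1.86). The DMSO medians of these lists were 0.84 and 0.61 for the AP-1 list, 1.01 and 0.83 for the chemokines, and 0.66 and 0.67 for the interferon genes, against 0.30 and 0.09 over all genes.

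Among agreeing genes, cell-cycle lists leaned the other way. Of 51 mitosis and G2/M genes, 16 agreed lower and 3 higher (23 and 1 after rescaling), with medians of -0.26 for A62T and -0.04 for dF109. The DMSO medians of these genes were -0.19 for A62T and -0.11 for dF109. CDC25C, the phosphatase that activates CDK1, was at 38.4, 40.1 and 41.4 TPM in EV, 17, 17.7 and 15.7 TPM in A62T and 21.5, 23.3 and 24.1 TPM in dF109. The mitotic kinesin KIF20A was lower, at -0.71 and -0.51 on the log2 scale, whereas the condensin subunit NCAPH was higher by 0.53 and 0.59. PLK1 was higher by 0.70 and 0.63 as deposited and passed for neither variant after rescaling (adjusted p = 0.075 and 0.12). Of 50 DNA replication genes, 8 agreed lower and 5 higher (15 and 2 after rescaling), with RRM2, a ribonucleotide reductase subunit, higher by 0.93 and 0.83 and thymidine kinase TK1 lower, at -0.69 and -0.42. By single variant, A62T had 6 of the 50 higher and 14 lower, whereas dF109 had 15 higher and 8 lower. The dF109 median of that list was above 0 as deposited and -0.14 after rescaling.

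Genes of the complexes that RUVBL1/2 serves gave counts of higher genes that fell on rescaling, as the count over all genes did (5472 to 2490). Of 31 subunits of the INO80, SRCAP and TIP60 complexes, 22 agreed higher and 1 lower, but 7 and 2 after rescaling. KAT5 and YEATS4 were the 2 that passed the difference of differences, against 62 higher genes among all those tested (0.459%). The ATPases SRCAP and EP400 differed by 1.37 and 1.08 and 1.05 and 0.97. After rescaling YEATS4 and EP400 passed for neither variant in inhibitor and SRCAP for A62T alone. Of 25 R2TP, TTT and PIKK genes, 12 agreed higher and 1 lower (5 and 3 after rescaling), with TRRAP, the pseudokinase shared with TIP60, at 9.8 ± 3.45 TPM in EV, 19.3 ± 0.856 TPM in A62T and 16.2 ± 1.19 TPM in dF109. RPTOR, SMG1 and TTI1 differed by 0.80 and 0.62, 0.83 and 0.59 and 0.59 and 0.59. Ribosome biogenesis and snoRNP genes had 30 of 51 higher and 1 lower (8 and 5 after rescaling), and medians of 0.23 for A62T and 0.29 for dF109 that were at the level of all genes. NUFIP1, POLR1A, RRS1 and TCOF1 differed by 0.78 and 0.83, 0.80 and 0.74, 0.69 and 0.67 and 0.66 and 0.68, and NUFIP1 did not pass for A62T after rescaling. Of 39 clustered histone genes listed, 8 were found by name and tested, and 4 agreed higher (2 after rescaling, and 1 lower). These included HIST1H2AC (1.27 and 0.62). The histone gene HIST1H3A, not among the 8, agreed lower (-1.42 and -0.85). Since the libraries were made from polyadenylated RNA, most histone mRNA is not measured.

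Stress and metabolic lists were split. Integrated stress and unfolded protein response genes had 20 of 33 higher and 2 lower (16 and 6 after rescaling). Targets of the ATF4 arm led them, with STC2 at 20.1 ± 3.69 TPM in EV, 87 ± 1.87 TPM in A62T and 62.1 ± 0.849 TPM in dF109, CHAC1 at 7.36 ± 1.3 TPM in EV, 36.9 ± 1.11 TPM in A62T and 23.6 ± 0.938 TPM in dF109 and TRIB3 at 16 ± 2.59 TPM in EV, 63.9 ± 3.6 TPM in A62T and 39.9 ± 1.86 TPM in dF109. PPP1R15A differed by 1.69 and 1.205. Cholesterol and fatty acid synthesis genes had 11 of 31 lower and 5 higher (20 and 1 after rescaling). FADS2, TM7SF2 and the desaturase SCD differed by -1.36 and -1.17, -1.32 and -0.95 and -0.93 and -1.13. In DMSO they differed by -0.81 and -0.89, -0.38 and -0.36 and -1.52 and -1.84. The difference of differences was -0.94 and -0.59 for TM7SF2 but 0.59 and 0.71 for SCD, each passing the threshold. The DMSO medians of the whole list were -0.13 for A62T and -0.33 for dF109. Of 30 glycolysis and hypoxia genes, 10 agreed higher and 12 lower (7 and 15 after rescaling). The glucose transporter SLC2A3 (1.86 and 1.28), hexokinase HK2 (1.62 and 1.26) and VEGFA (1.14 and 0.80) were higher, and the aldolase ALDOC (-1.13 and -1.03) lower. SLC2A3 also passed the difference of differences (1.02 and 0.87), though not for dF109 after rescaling (adjusted p = 0.095). p53 targets had 10 of 28 higher and 4 lower (5 and 8 after rescaling), with PLK3, GDF15 and AEN at 1.44 and 1.19, 1.43 and 1.11 and 0.96 and 0.78 and FDXR at -1.21 and -0.88 on the log2 scale. Of 25 antioxidant genes, 12 agreed higher and 3 lower (9 and 4 after rescaling), led by GCLM (1.49 and 1.18), a subunit of the enzyme that limits glutathione synthesis. ABCC3, OSGIN1 and HMOX1 differed by 1.68 and 1.13, 1.69 and 1.08 and 1.46 and 1.07. Autophagy and lysosome genes had 17 of 27 higher (10 after rescaling, and 3 lower), among them the receptor SQSTM1, at 195 ± 7.39 TPM in EV, 560.0 ± 20.5 TPM in A62T and 373 ± 2.66 TPM in dF109, and CTSS, MAP1LC3B and ULK1, at 1.201 and 1.17, 1.23 and 0.96 and 1.24 and 0.96. ULK1 did not pass for dF109 after rescaling. Of 15 BCL2 family genes, 10 agreed higher and 1 lower (6 and 2 after rescaling), with the survival genes BCL2A1 and MCL1 at 1.49 and 1.33 and 0.78 and 0.68. Of 24 heat shock genes listed, 5 were found by name and tested. Of these 5, 2 agreed higher, of which HSP90AB1 changed sign on rescaling (0.19 and 0.15 as deposited, -0.10 and -0.11 rescaled) and BAG3 did not (0.64 and 0.50).

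All 11 T3M-4 epithelial markers were at 1 TPM or more in every library, and 7 agreed higher and 1 lower (4 and 2 after rescaling). Of 20 markers of immune, endothelial, fibroblast, acinar and endocrine cells, 6 reached the 1 TPM mean and 3 agreed higher, on both scales. These were PTPRC at 10.8 ± 3.88 TPM in EV, 21.2 ± 1.91 TPM in A62T and 20 ± 1.12 TPM in dF109, LYZ at 1.85 ± 0.605 TPM in EV, 5.16 ± 0.563 TPM in A62T and 5.15 ± 0.669 TPM in dF109 and CD68 at 18.8 ± 2.16 TPM in EV, 44.2 ± 2.11 TPM in A62T and 31.2 ± 2.38 TPM in dF109. The summed level of the 20 was 40.4 to 67.1 TPM in EV, 93.8 to 102.7 TPM in A62T and 80.2 to 85.3 TPM in dF109. The T-cell and B-cell markers CD3E and CD79A were under 1 TPM in every library, as were the endothelial PECAM1 and fibroblast COL1A2, DCN and PDGFRB. The other endothelial markers passed 1 TPM in some libraries, with VWF at 0.894 to 2.41 TPM and CDH5 at 0.0648 to 1.05 TPM. The fibroblast genes COL1A1 and LUM were above 1 TPM in all 9. The part of these 20 markers in the comparison was not tested.

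The direct comparison of the variants, whose difference uses no EV library, called fewer genes than either did against EV. A62T was higher than dF109 at 221 genes (1.64%) and lower at 112 (0.829%). The count depended on which libraries set the spread. It was 1042 higher and 482 lower without EV replicate 3, 624 and 314 without EV replicate 1, and 92 and 24 without EV replicate 2. Without 1 variant library it was between 15 and 44 higher and between 2 and 15 lower, and with only the A62T and dF109 libraries in the fit it was 2264 and 975. The largest differences had dF109 between EV and A62T. ATG9B, an autophagy lipid scramblase, was at 0.985, 0.807 and 0.291 TPM in EV, 9.94, 10.3 and 10.8 TPM in A62T and 4.52, 4.71 and 4.23 TPM in dF109, with A62T above dF109 by 1.05 ± 0.15 (adjusted p = 0.015). MLPH, melanophilin, was at 1.89, 1.3 and 0.943 TPM in EV, 13.8, 12.3 and 12 TPM in A62T and 5.99, 5.13 and 5.7 TPM in dF109, and HKDC1, a hexokinase-like enzyme, at 1.32, 1.9 and 1.02 TPM in EV, 15.4, 16.2 and 16.2 TPM in A62T and 7.15, 7.42 and 8.09 TPM in dF109. A62T was above dF109 by 1.05 ± 0.14 for MLPH and 0.99 ± 0.12 for HKDC1. On the lower side, the histone gene HIST1H3A was at 9.41, 10.4 and 8.82 TPM in EV, 2.57, 3.53 and 2.78 TPM in A62T and 5.54, 4.37 and 4.64 TPM in dF109 and the oviductal glycoprotein gene OVGP1 at 7.35, 6.43 and 4.78 TPM in EV, 2.4, 2.73 and 2.66 TPM in A62T and 5.14, 4.22 and 4.48 TPM in dF109. The direct difference was -0.57 ± 0.12 for HIST1H3A, -0.64 ± 0.13 for OVGP1, -0.69 ± 0.12 for C1orf61 and -0.59 ± 0.11 for GPM6A. OVGP1 did not pass against EV for both variants. By list, 10 of 51 mitosis genes were lower in A62T than in dF109, and 15 of 149 basal-like genes were higher.

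In AsPC-1 the same comparisons called 2247 genes higher (18.2%) and 3425 lower (27.7%) for both variants. Of 11780 genes tested in both lines, 1219 were higher in both, 24.6% of the T3M-4 list and 57.7% of the AsPC-1 list. Another 343 were lower in both, 44.5% and 10.4% of the respective lists. Directions were opposed for 1093 genes higher in T3M-4 and 126 lower in T3M-4. Large higher genes numbered 60 in AsPC-1, and 0 of these had a DMSO difference of at least 1 in both variants, beside 171 of 440 in T3M-4. For large lower genes the numbers were 11 of 113 in AsPC-1 and 18 of 28 in T3M-4. The lines were normalized in separate tables, and the difference between them was not tested.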

How the data were processed

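RNA was measured as polyadenylated RNA in 3 T3M-4 groups of 3 libraries in CB-6644 and 3 DMSO libraries. The authors quantified single-end reads against hg38 with kallisto, summarised transcripts to genes with tximport and deposited TPM, which sum to 1000000 in each library over 19875 gene names. TPM are relative and hold no read depth, so precision rests on the replicates. The authors tested their own counts with another tool, and those counts were not used here.

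Values were transformed as log2(TPM + 1). Genes averaging 1 TPM or more across the 9 inhibitor libraries were kept, and RUVBL1 and RUVBL2 were left out. The 3 inhibitor groups entered 1 limma fit (limma 3.58.1, R 4.3.3, empirical Bayes with trend), with Benjamini-Hochberg adjustment over all tested genes and a threshold of 0.05. Members agreed when both variants passed with the same sign. The difference of differences used all 12 libraries as 6 groups, so its spread comes from the inhibitor libraries, and was added after the data were seen. AsPC-1 had its own fit. The fit was tested on simulated data with known changes.

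The members, gene lists and named genes were chosen with earlier results of these data known. Named genes were the 12 per direction with the largest smaller difference among agreeing genes without overlap, the genes the study follows, the 4 per direction with the largest A62T to dF109 difference without overlap, up to 4 members per list, and the first 10 higher and 6 lower by the difference of differences. Loci without a gene symbol were not named, and some genes the rule selects are not reported here. Of 13516 tested names, 12872 matched a current symbol and 398 an older one. Promoters and coordinates are RefSeq GRCh38.p14, the same primary assembly as hg38. The fit was repeated with 0.1 as the pseudocount, without a filter, with a filter at 5 TPM, with median-of-ratios scaling, with other sets of libraries, with a replicate block, without a trend, with a limit of 1 on the log2 scale and without each library in turn.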

Additional observations from a re-analysis of the deposited data

Results flagged for a closer look

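The difference between both variants and EV in CB-6644 had opposite signs in T3M-4 and AsPC-1, with every library of each line on its side, for C15orf48 and MUC20 among the leading genes and the genes the study follows. C15orf48 was higher in T3M-4 by 2.50 and 2.27 on the log2 scale for A62T and dF109, and the mean difference in AsPC-1 was -0.52, with levels of 2.3 ± 0.144 TPM in EV, 1.57 ± 0.464 TPM in A62T and 1.1 ± 0.283 TPM in dF109 (mean ± SD, n = 3). MUC20 was higher in T3M-4 by 3.06 and 2.26, and the mean difference in AsPC-1 was -1.27, with levels of 15.9 ± 2.6 TPM in EV, 5.63 ± 0.939 TPM in A62T and 6.4 ± 1.06 TPM in dF109. In DMSO, MUC20 in AsPC-1 was at 3.26, 3.2 and 2.45 TPM in EV, A62T and dF109. The difference between the lines was not tested, since they were normalized in separate tables.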

How the results depend on the processing

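After rescaling by the median of ratios, A62T had 3523 genes higher and 3500 lower, dF109 2653 and 2621, both variants 2490 and 2410, and 57 higher and 52 lower genes passed the difference of differences. Without a filter, A62T against dF109 had 70 lower genes, and 31 higher and 6 lower genes passed the difference of differences. Empirical Bayes without a trend gave 64 and 14 lower genes for those same comparisons. With only the 2 groups compared, A62T against dF109 had 2264 higher and 975 lower genes. With all 12 libraries and DMSO as a group, limma called 0 and 0 genes between A62T and dF109 (481 higher and 505 lower at an unadjusted p under 0.05), and the lower genes fell to 652 for dF109 and 604 for both variants. Requiring a difference of at least 1 left 913 higher and 83 lower genes for A62T, 445 and 30 for dF109, 440 and 28 for both, and 2 and 0 for A62T against dF109, the last with 1 gene at an unadjusted p under 0.05.

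The deviations of same-numbered libraries from their group means correlated between -0.16 and 0.31 over 9 pairs. Differently numbered libraries gave -0.31 to 0.27. With 3 libraries per group, these values cannot show whether the replicate numbers pair the libraries. With the replicate number as a block, A62T against dF109 had 50 higher and 13 lower genes, and no count of either variant against EV, or of both, moved by over 1.5 times. The block was not run for the difference of differences, whose DMSO libraries carry no replicate number in the labels. Leaving out each library gave 5546 to 7832 higher and 1255 to 1971 lower genes for A62T, 4371 to 7546 and 771 to 1462 for dF109, 4175 to 7045 and 716 to 1297 for both, and 15 to 1042 and 2 to 482 for A62T against dF109. For the difference of differences it gave 3 to 317 and 1 to 126, and for the share of large higher genes with a DMSO difference of at least 1, 24.2% to 49.5%.

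For named genes, 151 were refitted for both variants under the alternatives, and of 5412 values 5121 kept direction and side of the threshold, 283 no longer passed, 4 newly passed and 4 changed sign. Under rescaling HSP90AB1 went to -0.10 for A62T and -0.11 for dF109, and KRT14 to -0.10 and -0.0037. TPM give no depth.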
